A study of Mus musculus with 6 samples.

Results

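Keratin-associated protein genes (Krtap genes) were taken as every non-control probe whose gene name on the array began with Krtap followed by a digit. The rule gave 55 of the 37074 gene names on the array, measured by 58 of 56605 non-control probes. The set was looked at because 1 member, Krtap13-1, was high in the knockout, so the measured difference of Krtap13-1 is a description here and carries no test. The other members were chosen by name alone.

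The samples were 3 cultures from mice that lack the long non-coding RNA NONMMUT002667 (KO) and 3 from wild-type mice (WT), all labelled male. Each was bone marrow stromal cells: cells freed from crushed femurs with collagenase, sorted as Sca-1+ CD29+ CD45- CD11b-, and grown in flasks to the first passage. RNA of each culture was labelled with Cy3 and hybridised to 1 Agilent array. The design of the deletion, the age of the mice and the number of mice behind a culture are not stated in the labels, so p-values measure only the spread between these 6 samples, which may be technical.

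Krtap proteins are the matrix of the hair shaft. They lie between the keratin filaments and are bonded to them through cysteines, and the families are named high-sulfur, ultrahigh-sulfur or high-glycine-tyrosine after their composition. The genes are small, come as tandem arrays of near copies, and are switched on late in the cortex and cuticle of the growing hair, so marrow stroma is not a tissue in which they are known to work.

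All 6 arrays lay on 1 slide and came from 1 scan, but the KO arrays filled slide row 2 and the WT arrays row 1, so slide row and genotype cannot be told apart. A probe counts below as detected where the scanner software marked it well above background. Of the non-control spots, 53%, 52.1% and 49% were detected on the KO arrays and 54.3%, 56.1% and 56.7% on the WT arrays. Xist, which male cells lack, was detected on KO array 1 and WT array 3, against the labels. Of the sort markers, Ly6a (Sca-1) and Itgb1 (CD29) were detected on all 6 arrays, and so were Ptprc (CD45) and Itgam (CD11b), which the sort should have removed. All 10 stromal markers on a fixed list were detected on at least 1 array and all 10 macrophage markers on all 6. The mean log2 level of the macrophage list lay between 4.74 and 4.88 on KO arrays and between 4.55 and 4.77 on WT arrays. The part of these cells in the results below was not tested. In cultured cells measured in bulk, fewer cells of a type and less RNA per cell cannot be told apart.

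Signals are given as log2 of the scanner's background-corrected signal minus that array's 75th percentile, so 0 is that percentile itself. Levels of different probes are not comparable, since each probe binds with its own strength. The probes that carry the results are printed first, as deposited, 5′ to 3′. Capitals mark the longest exact stretch that the probe shares with a probe of another gene on the array, and positions are those in the files, on mouse build mm9. The first is the Krtap13-1 probe, at chr16:88729718-88729777 on the plus strand, with its closest Krtap neighbours, Krtap27-1 at chr16:88671295-88671354 and Krtap13 at chr16:88751224-88751283, both on the minus strand.
Krtap13-1: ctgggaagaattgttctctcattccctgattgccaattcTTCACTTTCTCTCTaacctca
Krtap27-1: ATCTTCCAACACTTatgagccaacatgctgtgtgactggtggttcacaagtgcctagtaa
Krtap13: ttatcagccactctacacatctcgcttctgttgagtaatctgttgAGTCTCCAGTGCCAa
In these 3 the longest stretch shared with another gene's probe was 14 of 60 bases. Matches to transcripts or genome outside the array's probes were not searched.

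The next set is shown because its repeats are shared between genes. Krtap5-3 at chr7:149387633-149387692 and Krtap5-4 at chr7:149489675-149489734, both on the plus strand, are ultrahigh-sulfur genes. Krtap4-6, at chr11:99526996-99527055 on the minus strand, is another. Krtap20-2, a high-glycine-tyrosine gene, has overlapping probes at chr16:89206222-89206281 and chr16:89206262-89206321 on the plus strand. Krtap16-3 at chr16:88962906-88962965 and the second probe of Krtap19-2 at chr16:88874321-88874380 are on the minus strand.
Krtap5-3: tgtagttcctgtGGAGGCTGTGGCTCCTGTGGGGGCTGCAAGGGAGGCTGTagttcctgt
Krtap5-4: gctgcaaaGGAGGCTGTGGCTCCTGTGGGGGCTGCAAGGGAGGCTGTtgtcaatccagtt
Krtap4-6: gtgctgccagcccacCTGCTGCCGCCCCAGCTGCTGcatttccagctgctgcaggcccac
Krtap20-2, first probe: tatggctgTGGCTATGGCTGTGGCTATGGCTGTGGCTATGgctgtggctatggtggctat
Krtap20-2, second probe: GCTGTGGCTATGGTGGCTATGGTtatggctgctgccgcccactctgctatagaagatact
Krtap16-3: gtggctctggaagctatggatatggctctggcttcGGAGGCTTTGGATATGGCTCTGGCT
Krtap19-2, second probe: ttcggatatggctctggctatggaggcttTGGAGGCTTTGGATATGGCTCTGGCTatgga
Krtap5-3 and Krtap5-4 shared 39 bases with each other, Krtap16-3 and Krtap19-2 shared 25, and Krtap4-6 and Krtap4-13 shared 21. In Krtap19-2 the capitals mark 26 bases shared with a probe of Gm41515, which shared 25 with Krtap16-3. The first Krtap20-2 probe shared 32 with a probe of LOC102637192. Signals of probes that share such stretches cannot be assigned to 1 gene with certainty.

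Krtap13-1 codes for a high-sulfur protein of the hair shaft. Its single probe read -2.69, -1.25 and -2.78 on KO arrays 1, 2 and 3, against -6.49, -6.72 and -6.65 on the WT arrays. Every KO value lay above every WT value, and KO array 2 stood clear of the other KO arrays. The means were -2.24 ± 0.86 in KO and -6.62 ± 0.12 in WT (SD, n = 3 each), a difference of 4.38 in log2. The probe was detected on all 3 KO arrays and on no WT array, so WT gives only an upper limit. Against the lowest signal detected on each WT array, Krtap13-1 was 4.90-fold higher in KO on this scale, an approximate bound. It is no strict minimum, since an undetected probe can read above the lowest detected signal. Leaving out 1 array at a time moved that bound between 3.48-fold, without KO array 2, and 5.91-fold, without KO array 3.

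The spots themselves showed the same split. The mean pixel signal of the Krtap13-1 spot was 183, 553 and 200 on KO arrays, over local backgrounds of 44, 49 and 47. On WT arrays it was 40.8, 43.5 and 45.6, over backgrounds of 42, 42 and 37. In the WT cultures the spot was thus about as bright as its surroundings. The difference was 4.59 without KO array 1 and WT array 3, the arrays with Xist signal. The deposited normalized table gave log2 values of 7.37, 8.80 and 7.30 in KO and 3.71, 3.66 and 3.64 in WT. With normexp background correction and quantile normalization together, the values were 7.92, 9.04 and 7.88 in KO and 6.28, 6.30 and 6.43 in WT. The difference was then smaller, at 1.95, below the 2.29 in log2 that the bound above amounts to. That bound thus holds for the main scale only.

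Few probes of the array had this pattern of detection. Of all 56605 probes, 7 (0.0124%) were detected on all 3 KO arrays and on no WT array, and Krtap13-1 was the only Krtap probe among them. Krtap13-1 was picked because it was high in KO, so its place among the 7 is a description and no separate support. The mirror pattern, no KO array and all 3 WT arrays, held for 563 probes and no Krtap probe. The lowest detected signal was -4.14, -3.97 and -3.58 on the KO arrays and -4.40, -4.61 and -4.58 on the WT arrays, so a probe needed a higher signal to be detected in KO.

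**Figure D1:**
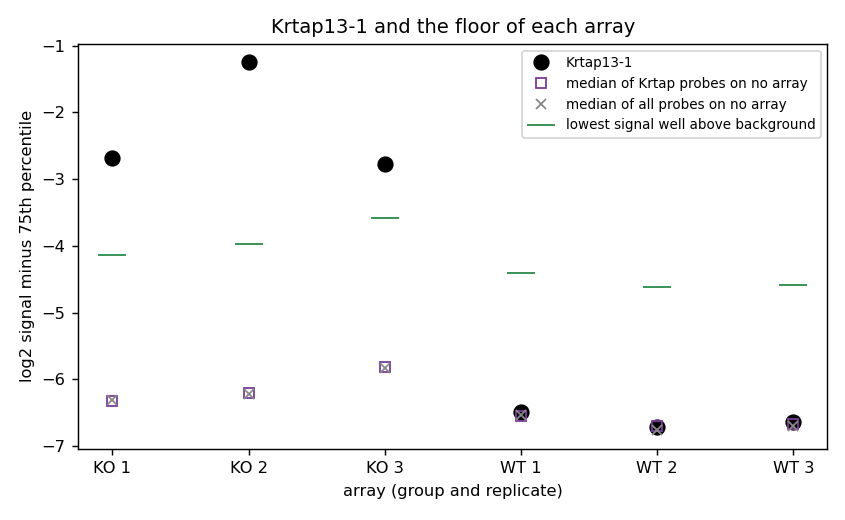
Log2 signal minus the 75th percentile (y axis) of Krtap13-1 (black points) on each of the 3 KO and 3 WT arrays (x axis), with the median of the Krtap probes detected on no array (squares), the median of all such probes (crosses) and the lowest detected signal (green lines). Krtap13-1 lay above the green line on KO arrays, at -2.69, -1.25 and -2.78, and with the undetected probes on WT arrays, at -6.49, -6.72 and -6.65.

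Krtap13-1 was alone among its neighbours on chromosome 16. That chromosome carries 25 Krtap probes for 23 genes between positions 88611735 and 89570480 (mm9), and the probe of Krtap13-1 is the fourth in line. Of the 24 other probes, 16 were detected on no array, 6 on all 6 arrays and 2 on 1 to 5 arrays. None was detected in KO without being detected in WT.

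The 3 Krtap genes on each side of Krtap13-1 were undetected in both groups. On the centromere side, Krtap27-1, a high-sulfur gene 58423 bases away, read -6.38, -6.26 and -5.87 in KO and -6.63, -6.71 and -6.83 in WT. Krtap26-1, further out, read -5.04, -5.76 and -4.70 in KO and -5.04, -5.13 and -4.59 in WT. Krtap24-1, the outermost, read -6.40, -6.26 and -4.04 in KO and -6.64, -6.19 and -5.45 in WT. In Krtap26-1 and Krtap24-1 the groups overlapped.

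On the other side, Krtap13, 21506 bases away and also of the high-sulfur Krtap13 family, read -6.26, -6.16 and -5.76 in KO and -6.47, -6.70 and -6.64 in WT. Krtap14 read -6.31, -6.19 and -5.80 in KO and -6.53, -6.75 and -6.71 in WT. Krtap15 read -6.31, -6.20 and -5.80 in KO and -6.54, -6.75 and -6.72 in WT. In Krtap13, Krtap14 and Krtap15 the KO arrays all lay above the WT arrays, by 0.55, 0.56 and 0.57 in the mean, and that is the distance between the floors of the arrays described next. Krtap19-1, a high-glycine-tyrosine gene and the nearest detected member, read 0.38, 0.45 and 0.42 in KO and 0.39, 0.45 and 0.41 in WT. The groups overlapped there, with a difference of -0.00 (SE 0.07).

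Undetected probes followed the floor of each array. Over the 30 Krtap probes detected on no array, the median signal was -6.32, -6.20 and -5.81 on KO arrays and -6.56, -6.71 and -6.67 on WT arrays. Over all 22288 such probes it was -6.32, -6.21 and -5.83 on KO arrays and -6.54, -6.77 and -6.70 on WT arrays. The median KO minus WT difference was 0.56 for these Krtap probes and 0.56 for all such probes. In 20 of the 30 every KO array lay above every WT array, beside 65.2% of all undetected probes, and in 0 of the 30 every KO array lay below, beside 1.63%. The differences ran from -0.38 for Krtap4-7, an ultrahigh-sulfur gene, to 1.36 for Krtap22-2, a high-glycine-tyrosine gene. Krtap22-2 read -4.29, -6.30 and -5.91 in KO and -6.73, -6.94 and -6.91 in WT, so KO array 1 alone made it stand out. Krtap11-1, also on chromosome 16 and named here after its values were seen, differed by 1.33. It read -6.46, -5.26 and -4.86 in KO and -6.74, -6.95 and -6.90 in WT, so KO arrays 2 and 3 both stood above the floor. Normexp with quantile normalization moved the median of these Krtap probes to -0.046 and the deposited normalized table to 0.028, so the shift of the undetected members has no settled direction.

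**Figure D2:**
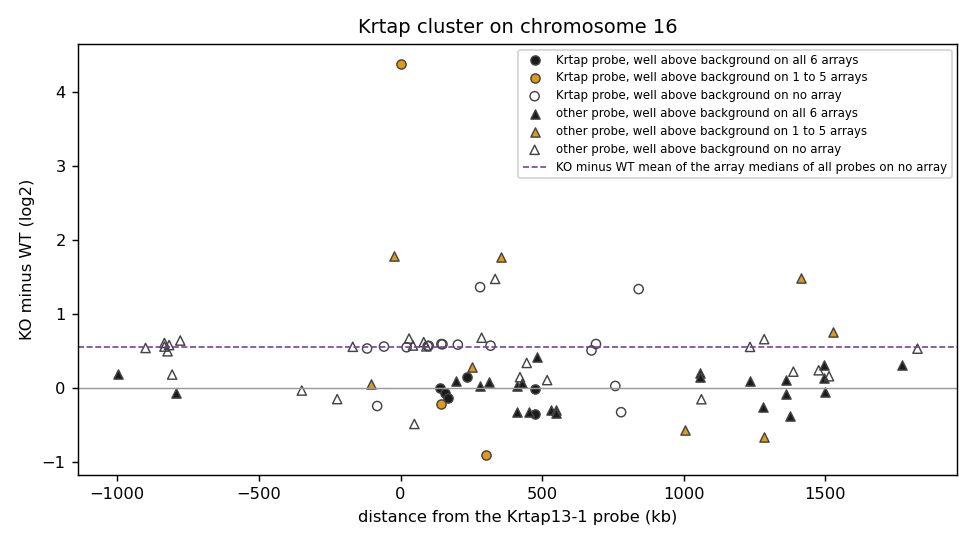
KO minus WT difference in log2 (y axis) of the Krtap probes (circles) and other probes (triangles) on chromosome 16 by distance from the Krtap13-1 probe in kb (x axis), filled black for detection on all 6 arrays, orange for 1 to 5 arrays and open for none. Krtap13-1 stood at 4.38, the undetected probes gathered near the dashed line that marks the shift of all undetected probes, and the probes detected on all 6 arrays lay between -0.38 and 0.42.

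Genes between and beside the Krtap genes were looked at under their other names. Within 1 Mb of the outermost Krtap probes lay 59 further probes, of which 24 were detected on all 6 arrays, 8 on some and 27 on none. Limma with Benjamini-Hochberg adjustment over all probes called 0 of the 27 that could be tested, beside 0.0629% of all tested probes. At an unadjusted p under 0.05, limma marked 8, 6 of them lower in KO, beside 15.9% of all tested probes. A Scaf4 probe among the 8, detected on 3 KO and 2 WT arrays, entered the fit through KO, where it was high. Gm41515 and 2310079G19Rik entered through WT and were not among the 8. The nearest named genes at one end were Cldn8, Cldn17 and Gm33255, where the claudin genes code for tight junction proteins, and none was detected. At the other end, Tiam1, an exchange factor for the small GTPase Rac, had 2 probes detected on all 6 arrays with differences of 0.19 and 0.15, and limma gave adjusted p-values of 0.668 and 0.643. Gm10789 was detected on KO array 3 alone, at -1.86, and Gm35774 on no array.

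Within the cluster, 25 of these probes belong to genes that do not carry a Krtap name, and the following were chosen after their values were seen. 2310057N15Rik, for which the RefSeq table lists Krtap13-1 as a synonym, is a separate gene there, and its probe was undetected at -6.32, -6.20 and -5.82 in KO and -6.55, -6.77 and -6.73 in WT. 2310034C09Rik, between Krtap13 and 2310057N15Rik, was undetected on all 6 arrays as well. 2310061N02Rik, on the other side of Krtap13-1, was detected on KO array 1 alone, with -3.25, -6.01 and -5.91 in KO and -6.70, -6.92 and -6.89 in WT. An unnamed transcript within the cluster was also detected on KO array 1 alone, at -3.07. No probe in the cluster other than Krtap13-1 was thus detected on more than 1 KO array while undetected in WT.

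The 19 Krtap probes detected on all 6 arrays made up 32.8% of the Krtap probes, below the 45.2% of all probes. They belonged to 18 genes on chromosomes 7, 10, 11 and 16. The filter for testing asked for detection on every array of at least 1 group, which 21 Krtap probes met: these 19, Krtap13-1 through KO alone and Krtap16-1 through WT alone. Of the 20 other than Krtap13-1, and so of the 19, limma called 0 after adjustment over all 28606 tested probes, of which 18 (0.0629%) were called, 4 of them (0.014%) higher in KO. Without WT array 1, 2 or 3 in turn, limma called 2, 4 and 31 of all probes, and 0 of these Krtap probes each time. At an unadjusted p under 0.05, limma marked 3 of the 19, beside 15.9% of all tested probes. The differences of the 19 had a median of -0.00, beside 0.03 over all tested probes, with 9 above and 10 below 0. In 2 of the 19 every KO array lay above every WT array, beside 13.4% of all tested probes, and in 4 every KO array lay below, beside 9.01%.

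The ultrahigh-sulfur Krtap5 genes on chromosome 7 had 5 of 6 probes detected on all 6 arrays. Krtap5-2 read -1.31, -1.30 and -1.31 in KO and -1.47, -1.57 and -1.55 in WT. The groups did not overlap, the difference was 0.22 (SE 0.07), and limma gave an adjusted p of 0.214. Krtap5-4 read -1.50, -1.53 and -0.63 in KO and -1.62, -1.93 and -1.65 in WT. The KO values were all above the WT values, but most of the difference of 0.51 (SE 0.25, limma adjusted p = 0.383) lay in KO array 3. Krtap5-3, which shares 39 bases with Krtap5-4, read -0.69, -0.77 and -0.91 in KO and -0.79, -1.01 and -0.90 in WT, with overlapping groups. Krtap5-5 differed by 0.04. Krtap5-1 had a probe detected on all 6 arrays, with a difference of 0.12, and a probe detected on none.

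On chromosome 10 the high-sulfur genes Krtap10-4 and Krtap10-10 were detected on all 6 arrays, with differences of -0.14 and 0.01 and overlapping groups. Krtap12-1 was detected on none.

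Among the 22 Krtap probes on chromosome 11, 6 were detected on all 6 arrays. Krtap4-8, an ultrahigh-sulfur gene, read 0.29, 0.42 and 0.42 in KO and 0.50, 0.63 and 0.65 in WT. All KO values lay below all WT values, by 0.21 in the mean (SE 0.08, limma adjusted p = 0.281). Krtap4-6 read 5.88, 5.85 and 5.87 in KO and 5.91, 6.11 and 6.03 in WT, and Krtap4-13 read 3.41, 3.48 and 3.40 in KO and 3.50, 3.70 and 3.60 in WT. The KO arrays were again the lower ones without overlap, by 0.15 and 0.17, and limma gave adjusted p-values of 0.433 and 0.376. Krtap4-1, Krtap9-1 and Krtap31-1 had overlapping groups and differences of 0.29, -0.00 and 0.19. Krtap16-1, detected on 1 KO array and 3 WT arrays, read -4.01, -4.28 and -3.90 in KO and -3.90, -3.42 and -3.70 in WT. Its difference was -0.39, and it is given without a test, since it passed the filter through the group where it was high.

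On chromosome 16 the detected members other than Krtap13-1 came from families whose proteins are mostly rich in glycine and tyrosine. Krtap19-1, Krtap19-4, Krtap19-5 and Krtap16-3 had overlapping groups, with differences of -0.00, -0.07, -0.14 and 0.15. The first Krtap20-2 probe read -1.92, -2.15 and -2.18 in KO and -2.03, -2.19 and -1.96 in WT, a difference of -0.02. The second read -1.10, -1.07 and -0.84 in KO and -0.72, -0.64 and -0.58 in WT, a difference of -0.36 (SE 0.10) with no overlap. Limma gave the second probe an adjusted p of 0.164, the lowest of the 19. These overlapping probes of 1 transcript thus differed in whether the groups were apart.

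Some probes of other names in the cluster also read lower in KO, like the second Krtap20-2 probe, and they were chosen after their values were seen. Of the 13 testable probes between the outermost Krtap probes that carry no Krtap name, 5 had an unadjusted limma p under 0.05, beside 15.9% of all tested probes, and all 5 were lower in KO. The other 8 had differences above 0, from 0.03 to 0.42, and include Gm41515 and 2310079G19Rik, which entered the fit through WT. Gm34396 was lower by 0.32 and Gm35257 by 0.30, with limma adjusted p-values of 0.170 and 0.160. The other 3 were probes of unnamed transcripts, with differences of -0.33, -0.30 and -0.34. The probes at -0.30 and -0.34 belong to the same transcript and have the same position, so they are not separate genes. The second Krtap20-2 probe shared 20 bases with the Gm34396 probe and 23 with the unnamed probe at -0.34, so these 3 readings are not independent. The second Krtap20-2 probe also shared 23 bases with another probe of the transcript at -0.33. That other probe was not lower in KO, at 0.03, so the probes of that transcript disagreed. Limma called none of them after adjustment.

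The 8 other Krtap probes detected on 1 to 5 arrays, Krtap16-1 included, had more WT than KO arrays above background. The whole array leaned the same way. Of all probes, 4.47% were detected on exactly 1 WT array and no KO array, and 2.59% on exactly 1 KO array and no WT array. The share of all partly detected probes that leaned to WT was not taken. Krtap28-13, Krtap3-2, Krtap6-1 and the second Krtap19-2 probe were detected on 1 WT array each, and Krtap1-4, Krtap3-3 and Krtap4-16 on 2. None of these 7 was detected on a KO array. Krtap3-3, a high-sulfur gene, was the most uneven member: it read -6.40, -6.28 and -5.88 in KO and -6.63, -1.24 and -4.03 in WT. WT array 1 was as dim as the KO arrays, so the groups overlapped. Krtap1-4 read -4.34, -4.46 and -4.72 in KO and -4.19, -4.00 and -3.98 in WT, while Krtap4-16 read -4.13, -4.13 and -3.77 in KO and -4.26, -4.73 and -4.22 in WT. Krtap4-16 had the higher signals in KO and yet was detected only in WT, where the lowest detected signal was lower.

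**Figure D3:**
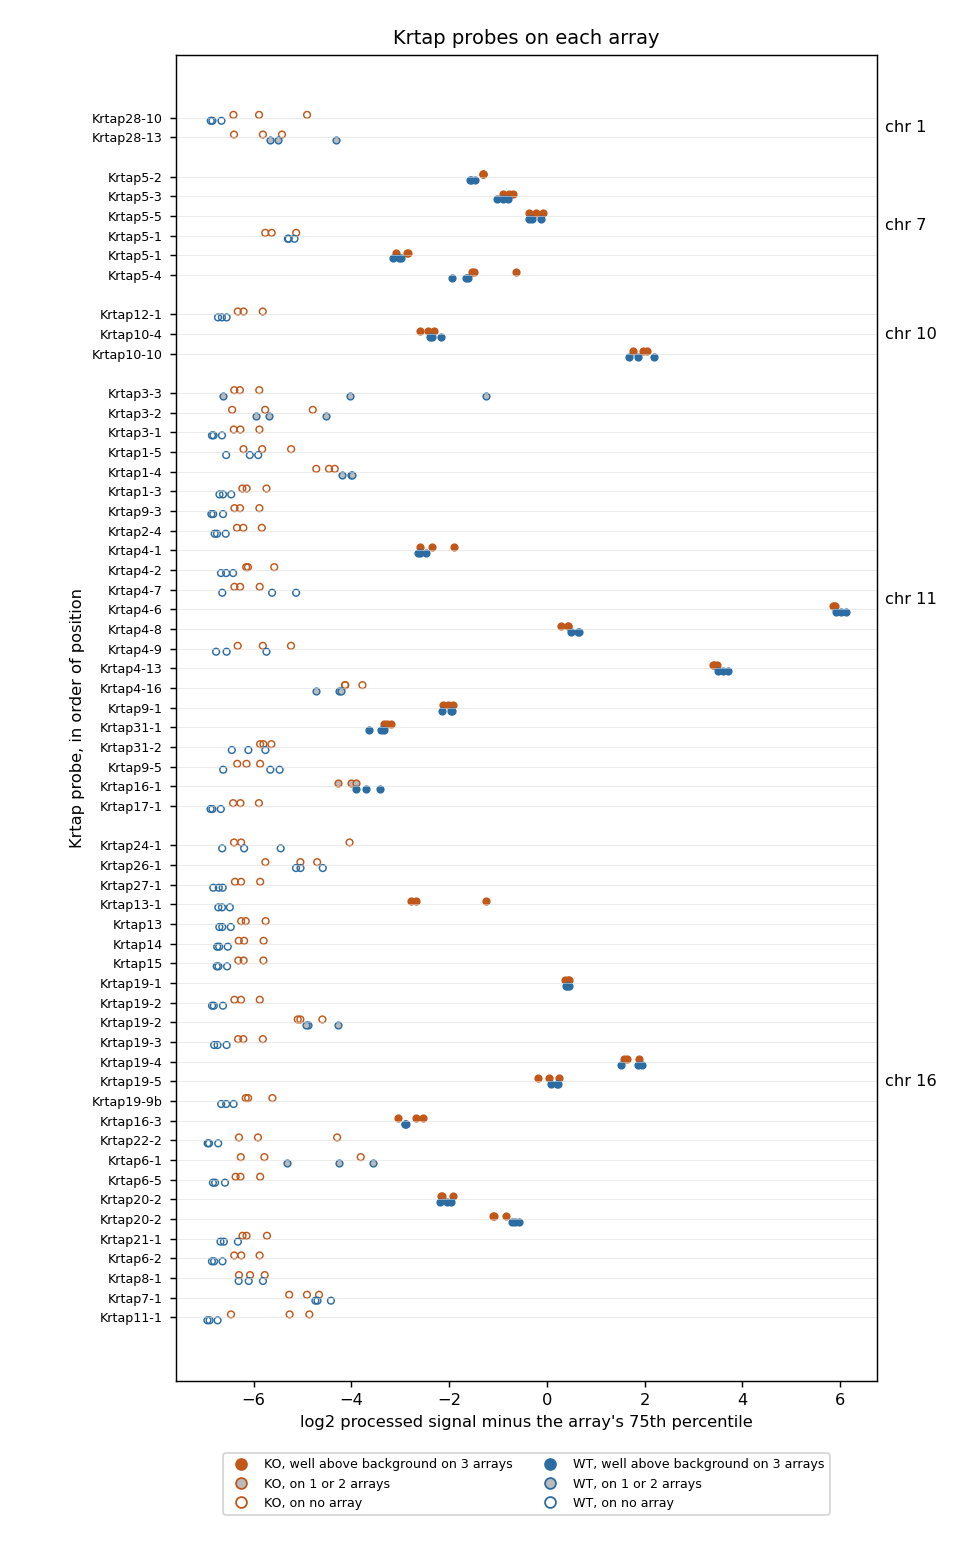
Log2 signal minus the 75th percentile (x axis) of each of the 58 Krtap probes (y axis, by chromosome and position) on the 3 KO arrays (orange, upper points) and the 3 WT arrays (blue, lower points), filled where the probe was detected on all 3 arrays of the group, grey on 1 or 2 and open on none. Only Krtap13-1 is filled in one group and open in the other.

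Detection went with base composition. Of the 25 Krtap probes with at least 50% G and C, 16 (64.0%) were detected on all 6 arrays, against 3 of the 33 (9.09%) below 50%. For the probes of all other genes the shares were 51.6% and 44.0%. The median G and C content was 55% in the Krtap probes detected on all 6 arrays and 42.5% in those detected on none, and the Krtap13-1 probe held 41.7%. Krtap13-1 was undetected in WT, so it could not be among the probes detected on every array. Whether base composition bore on its signal was not tested.

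Among the Krtap probes, detection also went with shared sequence. Of the 19 probes detected on all 6 arrays, 9 shared at least 20 bases with a probe of another gene, against 1 of the 30 detected on none and 1 of the 8 in between. The 9 include both Krtap20-2 probes and the pairs Krtap5-3 with Krtap5-4 and Krtap4-6 with Krtap4-13, so they are not separate cases. How many of all probes on the array share such stretches was not counted, so these counts have nothing to be set against. The Krtap13-1 probe shared 14 bases, with 1700018F24Rik. The string TGCTGC, searched on both strands and chosen after the probes were read, occurred in 6 of the 19 probes detected on all 6 arrays, in 5 of the 30 detected on none, not in the Krtap13-1 probe, and in 3.61% of all non-Krtap probes. The string GGCTATG, searched in the same way and free of overlap with TGCTGC, occurred in 2 of the 19 and 2 of the 30, not in the Krtap13-1 probe, and in 0.569% of all non-Krtap probes. Whether the steady signal of the repeat-rich probes came from Krtap RNA was not tested.

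**Figure D4:**
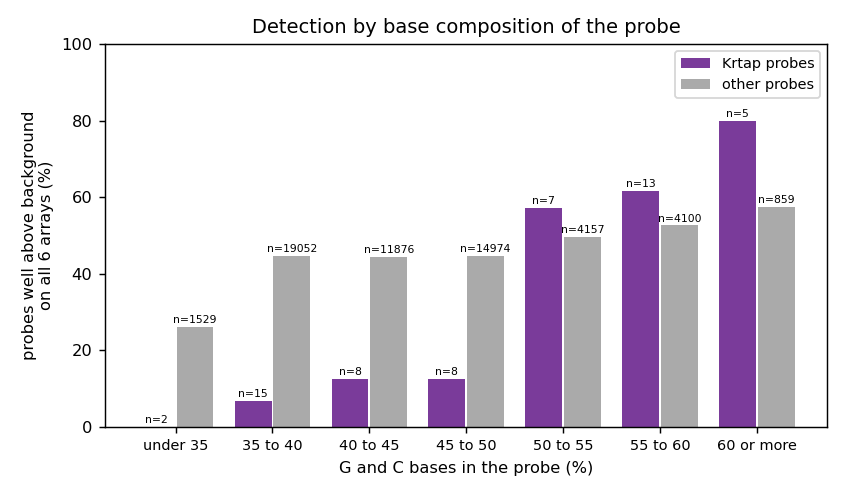
Percent of probes detected on all 6 arrays (y axis, bars from 0) by G and C content of the probe (x axis, %) for Krtap probes (purple) and all other probes (grey), with the number of probes above each bar. Detection of Krtap probes was 9.09% below 50% G and C and 64.0% at or above it, while that of other probes was 44.0% and 51.6%.

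Keratins, hair follicle genes and other epithelial genes showed no call either. Lists of hair, epidermal and simple epithelial genes put 88 genes on the array, of which 35 could be tested, and limma called 0 of them after adjustment, beside 0.0781% of all 15371 genes. At an unadjusted p under 0.05, limma marked 9, beside 15.4% of all genes, but some of the 35 entered the fit through the group where they were high. Restricted to probes detected on all 6 arrays, 24 list genes could be tested. Limma called 0 of them, beside 10 of all 25591 probes tested under that filter, and marked 6 at an unadjusted p under 0.05. The share of all genes marked under that filter was not taken, so the 6 has nothing to be set against. Hair shaft keratins, which the Krtap proteins cross-link, had 6 of 16 genes detected on at least 1 array and 4 tested. Krt85 read 2.13, 2.10 and 2.12 in KO and 2.05, 1.87 and 2.15 in WT, with overlapping groups. Krt31 read -3.48, -3.45 and -3.42 in KO and -3.09, -2.77 and -3.41 in WT, all KO values just below all WT values, and limma gave an adjusted p of 0.335. Krt83 and Krt86 differed by 0.05 and -0.21 with overlapping groups. The list's median difference was -0.08, which rests in part on Krt83 and Krt86, both entered into the fit through WT.

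The regulators of the hair shaft program were mostly measurable, with 15 of 19 tested and a median difference of -0.10. That median includes Hr, Lef1 and Lhx2, which entered the fit through WT and were lower in KO, so it gives no direction for the list. Hoxc13, a homeodomain factor that activates hair keratin and Krtap genes in the mouse, read -2.56, -2.23 and -2.77 in KO and -2.89, -3.41 and -3.14 in WT. All KO values were above all WT values, by 0.63 (SE 0.18), with a limma adjusted p of 0.184. The other probe of Hoxc13 was detected on no array. Foxn1, the factor lost in nude mice and acting downstream of Hoxc13, was detected on no array. Notch1, a receptor used in hair cell differentiation, was 0.62 higher in the mean (limma adjusted p = 0.174), without overlap. The other probe of Notch1 was also detected on no array.

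Dlx3, a homeodomain factor of hair and bone, read 1.21, 1.08 and 1.28 in KO and 1.81, 1.79 and 1.76 in WT, without overlap. Its difference of -0.59 (SE 0.08) had a limma adjusted p of 0.0639, which fell under 0.05 with normexp and quantile normalization together (0.0456) and with a variance trend (0.0341). Hr, the hairless corepressor, was detected on no KO array and all 3 WT arrays, at -4.18, -4.88 and -4.37 in KO and -3.43, -3.59 and -3.17 in WT. It entered the fit through WT, where it was high, so no test of it is given.

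The remaining lists were thinly detected. Among inner root sheath genes, 3 of 10 were detected and Tchh, trichohyalin, was the only one tested, with a difference of -1.05 and overlapping groups. It was detected on 2 KO and 3 WT arrays and so entered the fit through WT. Tgm3, S100a3 and Gprc5d, other proteins of the hair shaft, differed by -0.07, -0.15 and -0.17 with overlapping groups. Among cornified envelope genes, 4 of 18 were tested. Cdsn, corneodesmosin of the outer epidermis, was lower in every KO culture than in any WT culture, with a difference of -0.95 (limma adjusted p = 0.119). Lor, loricrin, entered the fit through WT, with 2 KO and 3 WT arrays detected, and differed by -1.28. Krt2 and Krt10 differed by -0.30 and -0.10 with overlapping groups.

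No marker of epidermal or simple epithelial cells passed the threshold. Krt5 and Krt14, the keratins of basal keratinocytes, were detected on 1 KO array and 3 WT arrays each, with differences of 0.00 and -0.01. Trp63, the factor of stratified epithelia, differed by 0.20 (limma adjusted p = 0.360), and Krt16, Krt6a and Dsc3 by -0.14, -0.09 and -0.13. Trp63 had 4 probes and Dsc3 had 3, and in each gene only the 1 used here was detected on any array. Krt8 and Krt18, the keratins of simple epithelia, were detected on no array, while Krt19 was detected on all 6 and differed by 0.74 with overlapping groups (limma adjusted p = 0.314).

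No sort, stromal or macrophage marker passed the threshold. Ly6a, Itgb1, Ptprc and Itgam differed by -0.08, -0.08, 0.20 and 0.13, each with overlapping groups. Of the stromal markers, the collagen genes Col1a1 and Col1a2 were lower in every KO culture than in any WT culture, by 0.89 and 0.49, and the chemokine gene Cxcl12 was 0.37 higher without overlap. Limma gave these 3 adjusted p-values of 0.142, 0.243 and 0.215. Thy1 differed by -0.65 with overlapping groups. Of the macrophage markers, Cd14, Csf1r and Ctss were higher in every KO culture than in any WT culture, by 0.32, 0.14 and 0.15, with limma adjusted p-values of 0.220, 0.450 and 0.415, and Fcgr1 differed by 0.20 with overlap.

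**Figure D5:**
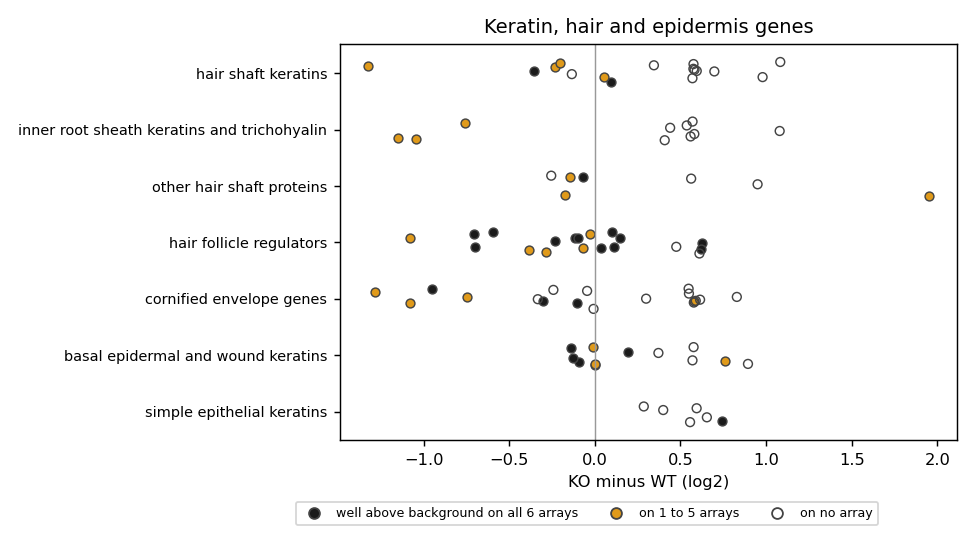
KO minus WT difference in log2 (x axis) of each gene in 7 lists of keratin, hair and epidermal genes (y axis), black where the probe was detected on all 6 arrays, orange on 1 to 5 and open on none. The farthest point to the right, at 1.95, is Lgals7, detected on KO array 3 alone, and the open points gather near the 0.56 shift of all undetected probes.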

How the data were processed

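The deposited scanner tables hold, per the file headers, intensity values from Agilent Feature Extraction 10.7.1.1 on build mm9: background-corrected processed signals, mean signals and median backgrounds. Version 9.1 of Agilent Feature Extraction stands in the submitters' processing notes. The authors' series table holds log2 values with the same sorted values in every column, as after quantile normalization, with any further step not stated. Each array has 62976 spots, 59305 of them not controls. The groups follow titles and source names; the description and extraction protocol speak of human blood instead. The members and gene lists were chosen with earlier results of these data known.

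Outlier spots (49 to 131 per array) were left out and spots of a probe averaged. The log2 processed signals were then centred on the 75th percentile of each array. A probe was detected where at least a share of 0.5 of its spots was well above background. Probes detected on every array of at least 1 group were tested (28606 probes, 15371 genes) with limma 3.58.1 in R 4.3.3 (lmFit and eBayes, two-sided, group only, 4 residual and 2.64 prior degrees of freedom), adjusted by Benjamini-Hochberg over all of them at 0.05. For a gene with several tested probes, the brightest over the 6 arrays stands for it. The bound of a fold is the KO mean minus the mean over WT arrays of the lowest detected signal or the probe's own, whichever is higher. The number of arrays limits precision. On simulated data for KO against WT (28606 probes), 135 of 200 changes of log2 1 were recovered with 4 false calls, and 184 of 200 of log2 2 with 16. The simulated noise was normal and independent between probes. More probes were called there than the 18 in the data, which loosens the Benjamini-Hochberg cut. These counts are therefore not the power of the real comparison.

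Genes were named by a rule: Krtap13-1, each Krtap gene detected on at least 1 array or past the threshold, up to 5 Krtap genes on each side of Krtap13-1, the extremes of the undetected Krtap probes, per list up to 4 genes with the smallest p and a fixed few, and the 3 nearest named genes at each end of the chromosome 16 cluster. Of the 58 probes, 55 matched the RefSeq table (GRCm38.p6, used for names only) by accession. Same-numbered KO and WT arrays deviated together with r of 0.06, 0.15 and -0.03, so the numbers were not taken as pairs. Alternatives were normexp with quantile normalization (offset 50), median centring, the authors' table, a variance trend, other filters, a replicate block and leaving out arrays.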

Additional observations from a re-analysis of the deposited data

How the results depend on the processing

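The difference of Krtap13-1 kept its sign throughout: it was 1.95 with normexp and quantile normalization, 4.15 in the deposited table, 4.37 with median centring, 4.59 without the arrays with Xist signal, and 3.89 to 4.65 with 1 array left out. The median difference of undetected Krtap probes turned to -0.046 with normexp and quantile normalization and was 0.028 in the deposited table, where all undetected probes gave -0.023 and 0.013, and it ranged from 0.41 to 0.67 with 1 array left out. Krtap probes detected on at least 1 array numbered 44 with the scanner's weaker flag of a positive and significant signal, and 24 to 28 with 1 array left out. Limma called 0 Krtap probes other than Krtap13-1 and 0 genes beside the cluster in every alternative. From 0 to 23 such Krtap probes had an unadjusted p under 0.05, the 23 out of 57 tested without a filter on dim probes. That fit takes in the undetected probes, whose median difference was 0.56 both for Krtap probes and for all probes, so the 23 is no result about the Krtap genes. The share of all probes at an unadjusted p was not taken in the alternatives. Of the list genes, 1 (Dlx3) was called with normexp and quantile normalization and 1 (Dlx3) with a variance trend. Over all probes, calls moved between 0, with no filter and with the replicate block, and 215 with normexp and quantile normalization, 18 being the count reported, and leaving out WT array 1 or 2 gave 2 and 4. With the replicate number as a block the Krtap13-1 difference was 4.38 and limma called 0 other Krtap probes, 3 having an unadjusted p under 0.05. A block for slide or scan was not run, since all arrays share 1 of each. Signals near background limit what the undetected members can show.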

Other observations

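Of the 88 genes on the keratin, hair and epidermis lists, 1 was detected on exactly 1 KO array and no WT array, and 9 on exactly 1 WT array and no KO array. The pattern was looked for after the values were seen, and no test was made of it. Lgals7, a galectin of stratified epithelia, read -1.74 on KO array 3 and was undetected elsewhere. Krt75, a hair follicle companion layer keratin, read -1.28 on WT array 1 alone. Krt36, a hair keratin, read -1.06 and Sprr3, a cornified envelope gene, -2.78 on WT array 3 alone. Krt28, of the inner root sheath, read -3.07 and Sprr2a1 -1.86 on WT array 2 alone, the array on which Krtap3-3 read -1.24. Krt84, Gata3, Shh and Tgm1 were the others, each on 1 WT array. Of all 56605 probes, 1468 (2.59%) were detected on exactly 1 KO array and no WT array, and 2528 (4.47%) on exactly 1 WT array and no KO array. Of the Krtap probes, 0 were detected on a lone KO array in this way and 4 on a lone WT array. The list counts are per gene, and an untested gene is represented by its brightest probe, while the shares of all 56605 are per probe. Krt36, Krt28 and Krt75 had 2 probes each, of which 1 was detected. The list counts can therefore not be set directly against these shares.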
